A study of Canis lupus familiaris with 42 samples.

Results

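Cytosolic chaperones of the HSP70 system were followed in spontaneous sarcomas of dogs, sampled after and before the first hyperthermia treatment. The genes were HSPA2 and HSPA8 of the HSP70 family, HSPA4, HSPA4L and HSPH1 of the HSP110 family, and DNAJA1, DNAJB1 and DNAJB4, which encode J-domain proteins. They were chosen by name from these families. Of these 8 genes, 7 had a probe set annotated with that symbol alone, out of 15115 genes so measured, and DNAJA1 was not analysed here.

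Each array held RNA of 1 tumour sample on an Affymetrix canine array. There were 21 arrays taken after the hyperthermia treatment and 21 arrays of untreated tissue taken before it, 1 of each from 21 tumours. The series text describes 22 tumours and says that the heat was given as an adjuvant to radiotherapy. The labels give neither the interval between the samples, the temperature, nor the radiation dose received by then, and no breed, age or sarcoma type. The samples used here include no second biopsy of an untreated tumour, so every change below is the difference between the second and the first sample. Values are log2 levels after RMA, which corrects background, sets the arrays to a common distribution and combines the probes of a probe set. A change of 1 is a doubling, and levels of different probe sets cannot be set against each other. Tumour numbers are names only. Whether any dog gave more than 1 tumour is not stated, and the p-values cover only the variation among these 21 tumours.

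HSP70 proteins bind unfolded stretches of other proteins and release them in a cycle driven by ATP. J-domain proteins bring the client and trigger ATP hydrolysis, and HSP110 proteins release the spent nucleotide so that the client can leave. HSPA8 is the constitutive member of the family, HSPA2 is best known from the testis of mice and humans, and HSPH1 and DNAJB1 are classic targets of the heat shock factor HSF1. Heat raises the transcripts of such targets for a limited time.

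Between the samples HSPA2 fell in level and HSPA4L rose, and the other 5 genes did not pass the test. HSPA2 was lower after treatment in 19 of 21 tumours, at 0.438 times the level before. HSPA4L was 1.29-fold higher on average, a result close to the threshold that was lost in 13 of 21 fits that left out 1 tumour. The mean changes of HSPH1 (0.47, SE 0.24) and DNAJB1 (0.20, SE 0.20) did not pass. In single tumours the level after treatment was up to 7.41 times (HSPH1) and 4.17 times (DNAJB1) the level before. In others it was as low as 0.202 times and 0.196 times. From tumour to tumour, 11 of 21 relations between the changes of the 7 genes passed a permutation test. Of these, 10 were positive, all among the 6 genes other than HSPA2. Many genes correlate over these tumours. Over all genes, from 0% to 6.07% had a higher r with a gene of such a positive pair than its partner did. The test was a limma fit over all 42924 probe sets with each tumour as a block, and a call needed an adjusted p (Benjamini-Hochberg) below 0.05. Among the 7 chaperone genes it called 1 higher and 1 lower. Over the 15115 genes it called 4.02% higher and 3.13% lower, 7.15% in all, and over all probe sets 2.97% higher and 2.99% lower, 5.96% in all. The median change of the 7 genes was 0.20, against 0.01 over all genes.

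**Figure D1:**
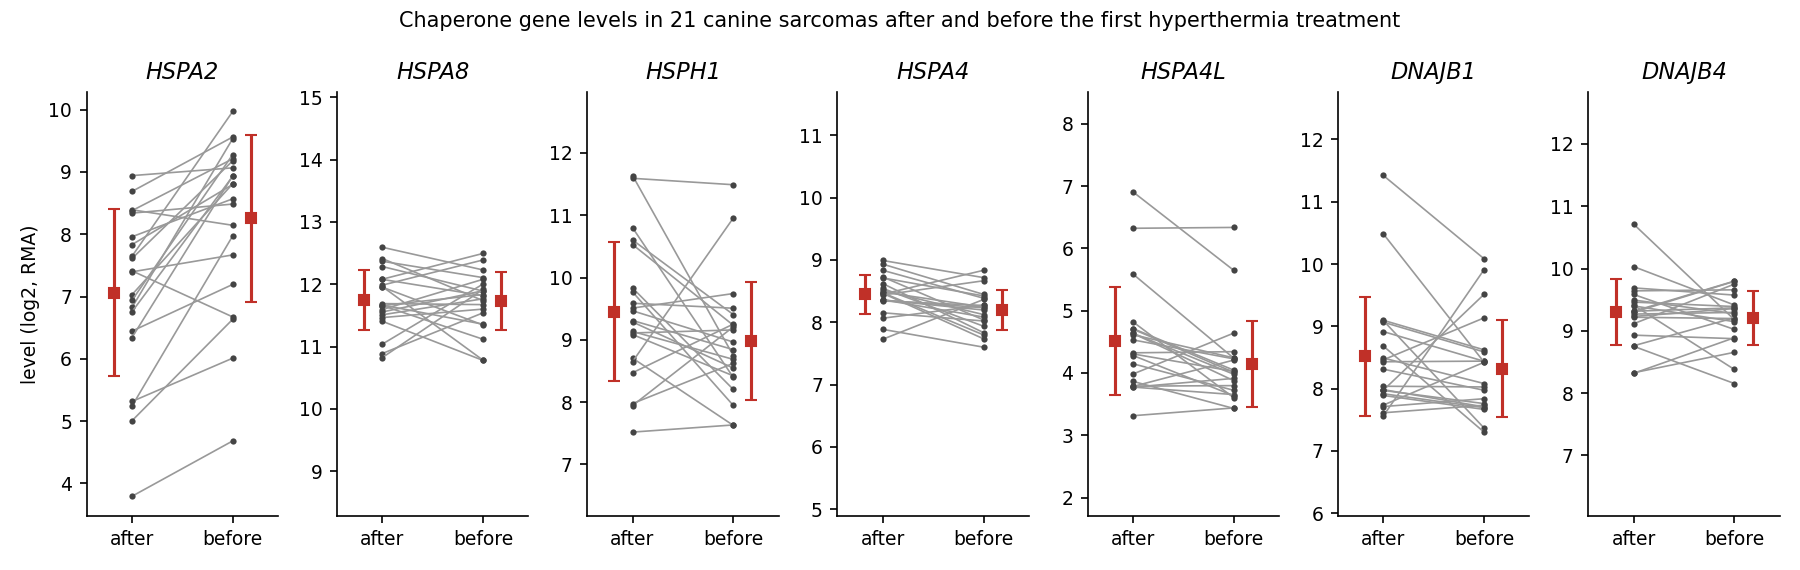
Levels (log2, RMA) of the 7 genes after and before the first hyperthermia treatment; lines join the 2 samples of a tumour, and red squares with bars are the mean and SD over 21 tumours. Each axis has its own level but the same span. HSPA2 is lower after treatment in 19 tumours, while the lines of HSPH1 and DNAJB1 cross.

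HSPA2 had the lowest mean of change among the 7 genes. After treatment the lowest level was 3.79 (tumour 17), the median 7.40 and the highest 8.94 (tumour 11), and before it they were 4.68 (tumour 17), 8.80 and 9.97 (tumour 16). The groups overlapped, and tumour 17 was lowest at both times. The mean was 7.06 ± 1.34 after treatment and 8.25 ± 1.34 before (SD, n = 21 each). The change within tumours averaged -1.19 ± 0.20 on the log2 scale (SE, n = 21; 95% interval -1.61 to -0.77; limma adjusted p = 0.0016). Its extremes were -2.73 (tumour 1) and 0.74 (tumour 15), and it was a fall of at least 2-fold in 9 tumours. Only tumours 8 and 15 had a higher level after treatment. HSPA2 had only 1 probe set with its symbol alone, as did HSPA8, so no other could serve as a check. In bulk tissue, fewer cells of a type and less RNA per cell cannot be told apart.

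HSPA8, which keeps a high constitutive level in most cells, had a mean change of 0.01 ± 0.12 (SE, n = 21; 95% interval -0.23 to 0.26; limma adjusted p = 0.967). Its level ran from 10.8 to 12.6 after treatment, with a median of 11.7, and from 10.8 to 12.5 before, with a median of 11.8. The 2 ranges were nearly the same, and 11 tumours were higher after treatment and 10 lower. The sign of this mean turned when any 1 of tumours 1, 3, 4, 7, 10, 12 or 16 was left out (lowest value -0.04). In single tumours the difference ran from 1.18 in tumour 16 to -1.09 in tumour 11. HSPA2 and HSPA8, both of the HSP70 family, differed in their changes. The change of HSPA2 was lower than that of HSPA8 by a mean of -1.21 ± 0.29 (HSPA2 minus HSPA8, SE, n = 21; 95% interval -1.82 to -0.60; sign-flip permutation test, p = 0.00054 and adjusted p = 0.0027 over 5 pairs of relatives), with HSPA2 the higher of the 2 in 4 tumours.

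The J-domain genes had small means. DNAJB1, an HSP40 protein that works with heat-induced HSP70, had a lowest level of 7.56 (tumour 8), a median of 8.31 and a highest level of 11.4 (tumour 19) after treatment, and of 7.30 (tumour 16), 8.08 and 10.1 (tumour 19) before. The ranges overlapped, and tumour 19 was highest at both times. The change averaged 0.20 ± 0.20 (SE, n = 21; 95% interval -0.22 to 0.61; limma adjusted p = 0.669), with 14 tumours higher. It was at least 2-fold upward in 4 tumours and at least 2-fold downward in 2. DNAJB4, another J-domain protein of the same class, ran from 8.32 to 10.7 after treatment, with a median of 9.31, and from 8.15 to 9.80 before, with a median of 9.28. These ranges overlapped too. Its change averaged 0.09 ± 0.11 (SE, n = 21; 95% interval -0.14 to 0.32; limma adjusted p = 0.739), with 11 tumours higher and the highest change, 1.53, in tumour 19. The changes of DNAJB1 and DNAJB4 differed by 0.11 on average (DNAJB1 minus DNAJB4, 95% interval -0.24 to 0.45; sign-flip permutation test, adjusted p = 0.627).

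The HSP110 genes all had means above 0. HSPH1, the heat-induced member, had a lowest level of 7.52 (tumour 5), a median of 9.31 and a highest level of 11.6 (tumour 7) after treatment, and of 7.63 (tumour 3), 8.84 and 11.5 (tumour 19) before. The 2 ranges overlapped almost completely. The change averaged 0.47 ± 0.24 (SE, n = 21; 95% interval -0.02 to 0.97; limma adjusted p = 0.287), with 14 tumours higher. With array weights it was 0.29 (limma adjusted p = 0.54). It was at least 2-fold upward in 7 tumours and at least 2-fold downward in 2, tumours 6 and 8. The other 2 probe sets of HSPH1 gave 0.56 and 0.67, and their changes followed those of the one used (r = 0.98 and 0.94 over 21 tumours, as a description).

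HSPA4, also called APG-2, had a mean of 8.45 ± 0.31 after treatment and of 8.20 ± 0.32 before (SD, n = 21 each). Its levels ran from 7.73 to 8.99 after treatment, with a median of 8.46, and from 7.60 to 8.83 before, with a median of 8.23. The groups overlapped. The change of 0.25 ± 0.08 was the least variable of the 7 (SD 0.38) and lay above 0 in 17 tumours, but it did not pass over all probe sets (limma adjusted p = 0.0612). It passed when tumour 6, 8, 9 or 19 was left out, with values from 0.27 to 0.29. The other 2 probe sets of HSPA4 lay at low levels (means of 4.50 and 3.71, against a median probe set mean of 5.28) and gave changes of -0.06 and -0.15, which did not follow those of the one used (r = 0.04 and 0.06 over 21 tumours, as a description). The mean of all 3 probe sets had a change of 0.015 (limma adjusted p = 0.927).

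HSPA4L, also an HSP110 protein, rose by 0.37 ± 0.11 (SE, n = 21; 95% interval 0.15 to 0.59; limma adjusted p = 0.0413), with 14 tumours higher. Its lowest level was 3.31 (tumour 5), its median 4.32 and its highest 6.91 (tumour 4) after treatment, and they were 3.43 (tumour 13), 4.01 and 6.34 (tumour 19) before, so the groups overlapped. The probe set lay low, since its mean of 4.33 exceeded that of only 32.6% of probe sets. The call lay close to the threshold. It was lost when any 1 of tumours 1, 2, 3, 4, 7, 10, 12, 13, 14, 16, 18, 20 or 21 was left out, with values from 0.32 to 0.38 and adjusted p from 0.0508 to 0.0778, and with the mean of both probe sets (0.299, limma adjusted p = 0.0572). The second probe set of HSPA4L gave 0.23 ± 0.09 (limma adjusted p = 0.173). No difference in change between HSP110 genes passed (sign-flip permutation adjusted p from 0.513 to 0.627). The means were 0.22 for HSPH1 minus HSPA4 (95% interval -0.22 to 0.67), 0.10 for HSPH1 minus HSPA4L (-0.32 to 0.52) and 0.12 for HSPA4L minus HSPA4 (-0.09 to 0.34).

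**Figure D2:**
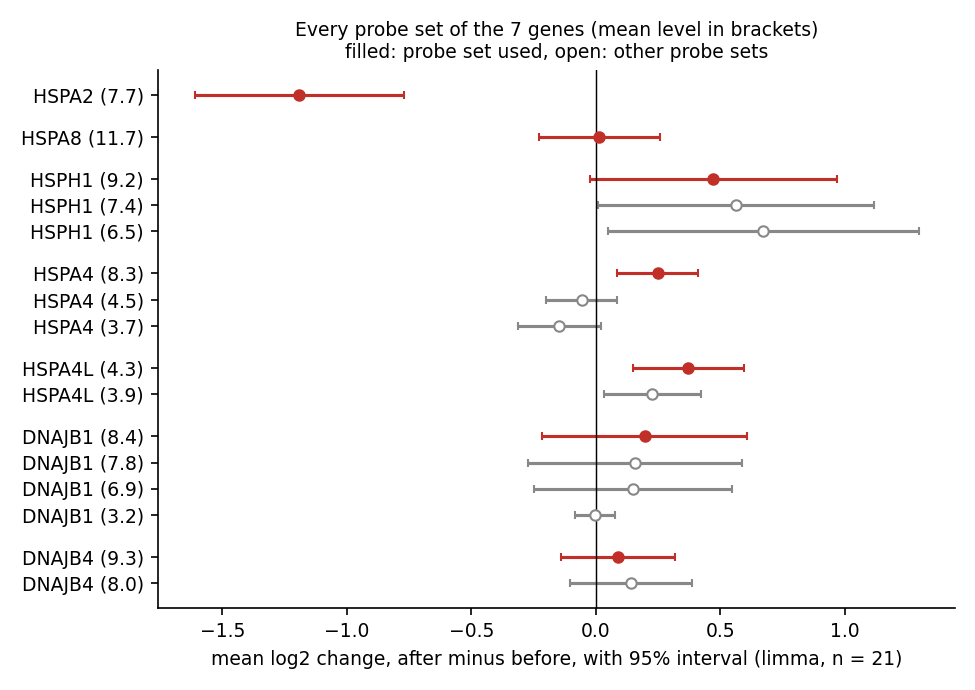
Mean log2 change (after minus before) of every probe set of the 7 genes with its 95% interval from limma (n = 21 tumours); filled points are the probe sets used and the mean level stands in brackets. HSPA2 lies at -1.19, the 3 probe sets of HSPH1 lie between 0.47 and 0.67, and the 3 probe sets of HSPA4 disagree.

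The arrays fell into a pair of classes by their poly-A controls, which are bacterial RNAs spiked in during labelling. These were high on both arrays of 9 tumours and low on both arrays of 12, and no label names this division. HSPA2 had a mean change of -1.16 ± 0.96 in tumours with high controls and of -1.22 ± 1.11 in tumours with low controls (SD, n = 9 and 12). HSPH1 had a mean change of 0.03 ± 1.26 with high controls and of 0.80 ± 1.11 with low controls (SD, n = 9 and 12). With high and then with low controls, the means were 0.20 ± 0.36 and 0.497 ± 0.62 for HSPA4L, 0.14 ± 0.38 and 0.33 ± 0.37 for HSPA4, and -0.09 ± 0.58 and 0.10 ± 0.60 for HSPA8. They were 0.16 ± 1.14 and 0.22 ± 0.94 for DNAJB1, and 0.17 ± 0.61 and 0.03 ± 0.51 for DNAJB4. None of these differences passed in limma with an interaction term (adjusted p from 0.768 to 0.989), which called 0.00233% of all probe sets, 1 in number. RNA quality was read as the 3′ to 5′ contrast of the GAPDH and actin controls, whose change averaged 0.06 ± 0.27 (SD, n = 21), with 0.21 in tumours with high and -0.05 in tumours with low spike-in controls. Its part in the differences between these classes was not tested. In the limma fit CDKN1A, the p53 target p21, rose by 1.85 and TOP2A of dividing cells fell by 1.67, while all 16 mesenchymal markers lay above the median probe set level and 4 of 14 keratinocyte and epithelial markers did.

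The tumours differed widely in these genes. In a mixture model 1 cluster of changes was preferred for 6 genes. For DNAJB1 the criterion (BIC, higher is better) was -64.6 for 2 components and -64.8 for 1. These components had similar means, 0.16 and 0.24, and differed in SD (1.33 and 0.198). No separate clusters of tumours were detected, but 21 values per gene cannot exclude them. The SD of the change over tumours was 1.21 for HSPH1, 1.02 for HSPA2 and 1.003 for DNAJB1, against a median SD of 0.28 over the 15115 genes, and these values exceeded those of 99.5%, 99.02% and 98.99% of genes. The SDs of DNAJB4 (0.55), HSPA4L (0.53) and HSPA8 (0.58) exceeded those of 91.4%, 90.7% and 92.7% of genes, and that of HSPA4 those of 76.0%. Of the 7 genes, 5 were higher after treatment in 7 tumours and 6 were higher in 6 tumours, while 1 was higher in 5 tumours and 0 were higher in 1 tumour, with 3 and 4 genes in 1 tumour each. No tumour had all 7 genes higher.

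Tumours 7, 10 and 16 had the highest changes of HSPH1. The changes in tumour 7 were 2.89 in HSPH1, 2.06 in DNAJB1 and 1.03 in DNAJB4. In tumour 10 they were 2.40 in HSPH1 and 1.73 in DNAJB1, and in tumour 16 they were 1.82 in HSPH1, 1.38 in DNAJB1 and 1.18 in HSPA8. Tumour 8 lay at the other end, with changes of -2.30 in HSPH1 and -2.35 in DNAJB1. It had levels of 8.65 for HSPH1 and 7.56 for DNAJB1 after treatment, against 10.96 and 9.91 before. Tumour 19 had high HSPH1 at both times, 11.6 after treatment and 11.5 before. BAG3, a co-chaperone that binds HSP70, had changes of 2.94 in tumour 7, 2.33 in tumour 10, 1.79 in tumour 16 and -1.27 in tumour 8. CDKN1A was higher after treatment in all 21 tumours, by 1.77 in tumour 7 and 2.79 in tumour 8.

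**Figure D3:**
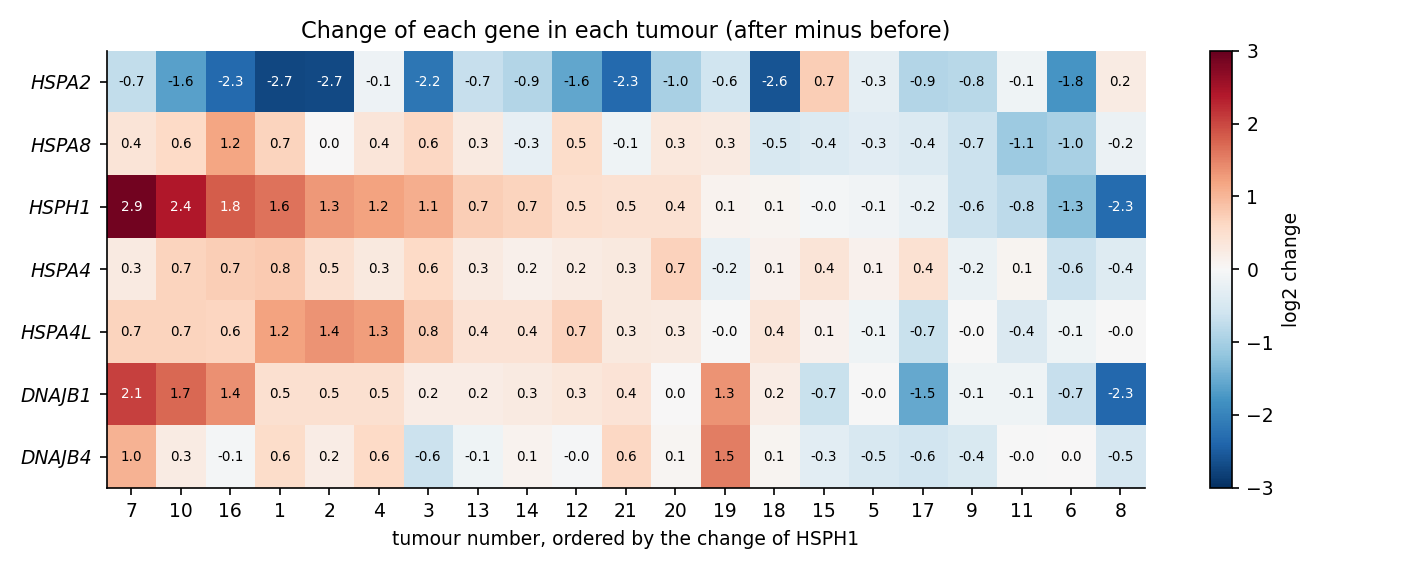
Log2 change (after minus before) of each gene (rows) in each tumour (columns), ordered by the change of HSPH1; red is higher and blue lower after treatment. HSPH1 runs from tumour 7 (2.89) to tumour 8 (-2.30), and DNAJB1 and HSPA8 follow its order only in part. HSPA8 is highest in tumour 16 (1.18) and lowest in tumour 11 (-1.09), and DNAJB1 is at 1.34 in tumour 19, where HSPH1 is at 0.10. HSPA2 is lower in 19 tumours.

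The next question was whether the genes moved together from tumour to tumour. HSPH1 and DNAJB1 changed in the same direction in all 21 tumours (Pearson r = 0.85, Spearman rho = 0.88, n = 21; permutation test, p = 1e-05 for both, which is the smallest value 100000 permutations allow; adjusted p = 0.00021 and 7.0e-05 over 21 relations). Without tumours 7 and 8, farthest from the median of HSPH1, r was 0.71. Within the tumours with high and with low spike-in controls it was 0.88 in both. The same direction in all 21 tumours holds for the probe sets used, each higher in 14 tumours. Other probe sets of DNAJB1 were higher in 12 tumours each, and their changes had r = 0.96, 0.87 and 0.57 with the one used. The last of these lay at a low mean level of 3.21. The other probe sets of HSPH1 were higher in 14 and 12 tumours. HSPH1 also went with HSPA8 (r = 0.73, rho = 0.83; permutation test, adjusted p = 0.00126 and 7.0e-05), with the same direction in 18 tumours. Without tumours 11 and 16 that r was 0.699, and it was 0.60 with high and 0.82 with low spike-in controls.

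Within the HSP110 family HSPH1 went with HSPA4 (r = 0.73, rho = 0.69; permutation test, adjusted p = 0.00126 and 0.00155) and with HSPA4L (r = 0.698, rho = 0.86; adjusted p = 0.00226 and 7.0e-05). Without the 2 tumours farthest from the median, r was 0.59 and 0.74. With high and with low spike-in controls it was 0.81 and 0.63 for HSPA4, and 0.70 in both for HSPA4L. DNAJB1 and DNAJB4 also went together (r = 0.66, rho = 0.74; permutation test, adjusted p = 0.00372 and 0.00098; r = 0.58 without tumours 7 and 8, 0.67 with high and 0.68 with low spike-in controls). In all, 11 of 21 relations passed by Pearson's r and 10 by Spearman's rho. Of the 11, 10 were positive, with r from 0.52 to 0.85. Many genes correlate over these tumours, so a called pair need not stand apart from other genes. As a description over all genes, 6.07% had a higher r with HSPA4 than HSPA4L did and 2.11% a higher r with HSPA4 than HSPA8 did, whereas no gene had a higher r with DNAJB1 than HSPH1 did. The negative one, between HSPA2 and HSPA4L, was at r = -0.48 (permutation test, adjusted p = 0.0499; rho = -0.45, adjusted p = 0.0639) and did not pass without tumours 1 and 2 (r = -0.28, adjusted p = 0.336). Its r was -0.70 over the 9 tumours with high spike-in controls, which include neither of those, and -0.43 over the 12 with low controls. All 6 relations of HSPA2 with the other genes were below 0, from -0.48 to -0.14. Both arrays of a tumour enter each change, so genes of 1 array share its quality. The relations of the 7 genes with the 3′ to 5′ contrast did not pass, with r from -0.16 for HSPA8 to 0.24 for HSPA4. It was 0.06 for HSPH1, -0.12 for HSPA2 and 0.23 for DNAJB4. For HSPA4 it was 0.68 with high and 0.23 with low spike-in controls, and passed in neither.

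**Figure D4:**
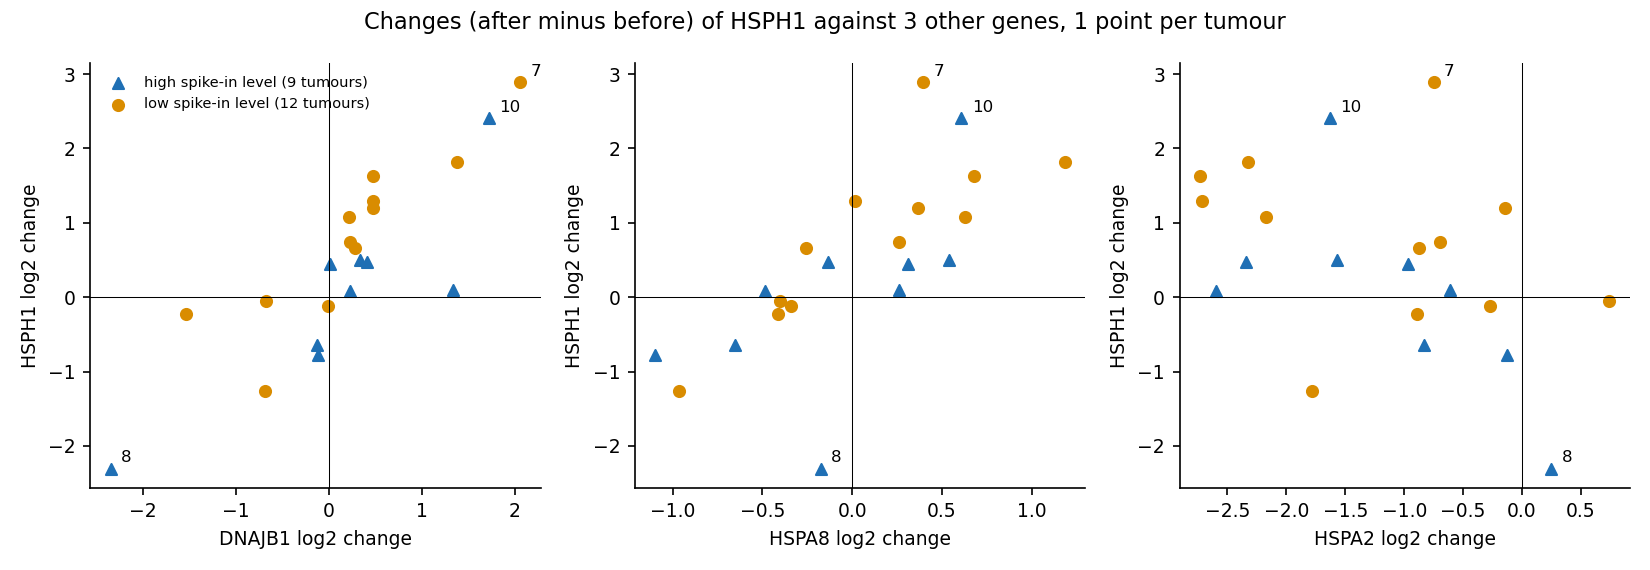
Log2 change of HSPH1 against that of DNAJB1, HSPA8 and HSPA2, 1 point per tumour, with triangles for the 9 tumours with high spike-in controls and circles for the 12 with low controls. HSPH1 rises with DNAJB1 (r = 0.85) and HSPA8 (r = 0.73), and tumour 8 lies at the lower end in HSPH1.

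**Figure D5:**
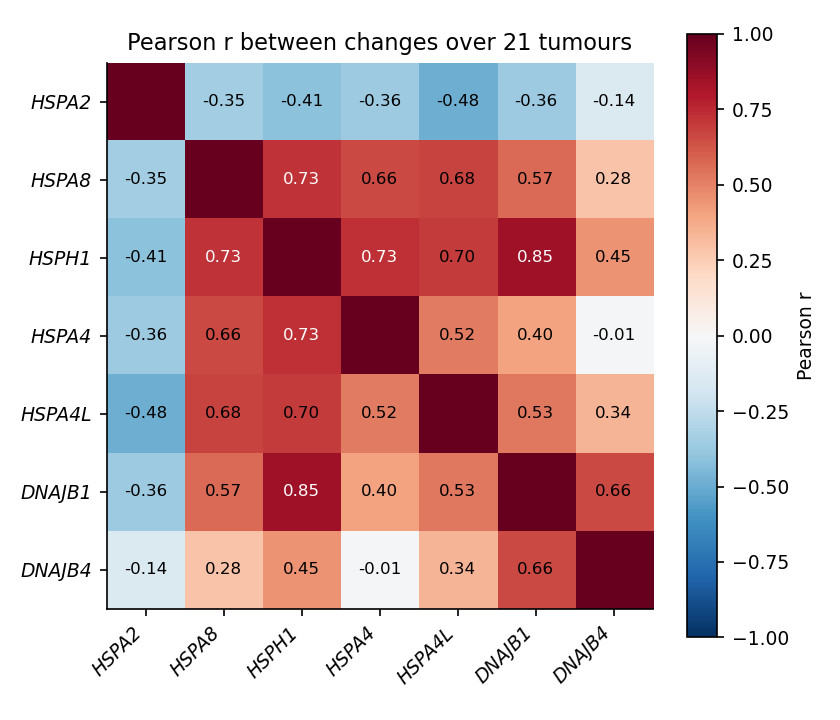
Pearson r between the changes of each pair of the 7 genes over 21 tumours. HSPA8, HSPH1, HSPA4, HSPA4L and DNAJB1 form a block of positive values (0.40 to 0.85), and the row of HSPA2 is negative throughout.

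All genes were searched for the most similar change over the 21 tumours, by Pearson's r among 15115 genes and as a description. HSPH1 lay nearest to STIP1 (r = 0.91), which links HSP70 to HSP90, followed by ZFAND2A (r = 0.896), known as an arsenite- and heat-inducible gene, DNAJB1, the HSP90 co-chaperone FKBP4 (r = 0.83) and BAG3 (r = 0.83). DNAJB1 lay nearest to HSPH1, ZFAND2A (r = 0.83) and the entry that the annotation names HSP70, a synonym of HSPA1 in RefSeq (r = 0.80), then to AKIRIN2 and SINHCAF (r = 0.76 each). The mean change was 0.91 ± 0.29 for the HSP70 entry with 15 tumours higher (limma adjusted p = 0.0642), 0.68 ± 0.27 for ZFAND2A (adjusted p = 0.144) and 0.26 ± 0.09 for STIP1 (adjusted p = 0.0852). These mean changes did not pass either, whereas BAG3 rose by 0.77 ± 0.21 (adjusted p = 0.0265).

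The other genes had other neighbours. HSPA8 lay nearest to DPH3 (r = 0.87) and POLR3K (r = 0.83). HSPA4 lay nearest to the translation factor subunit EIF3B (r = 0.89), EXOSC4 (r = 0.88) and MANF (r = 0.87), a secreted protein of the endoplasmic reticulum stress response. HSPA4L lay nearest to GFPT2 (r = 0.79). DNAJB4 lay nearest to the immediate early genes KLF6 (r = 0.74), CCN1 (r = 0.72) and NR4A1 (r = 0.72), then to AGBL1 (r = 0.72) and NDEL1 (r = 0.67). Without tumours 7 and 19 these r were 0.74, 0.57, 0.55, 0.67 and 0.45, in the same order. HSPA2 lay nearest to PPP2R5D (r = 0.83), MPV17 (r = 0.82), the interleukin 11 receptor gene IL11RA (r = 0.81), CD248 (r = 0.81), a surface protein of stromal cells, and ARSK (r = 0.81). Of these, IL11RA fell by 0.59 (SE 0.09, limma adjusted p = 0.00102) in 19 tumours, and CD248 (-0.27 ± 0.15, limma adjusted p = 0.334) did not pass.

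The 7 genes were then set against 5 comparator genes, 14 lists of genes and the 3′ to 5′ contrast, 140 relations in all. Of these, 13 passed by Pearson's r and 15 by Spearman's rho. Counts of list genes that rose or fell are read against all genes, of which 4.02% were called higher and 3.13% lower. BAG3 went with HSPH1 (r = 0.83, rho = 0.73; permutation test, adjusted p = 0.0014 and 0.0154; r = 0.699 without tumours 7 and 8) and with DNAJB1 (r = 0.74, rho = 0.73; adjusted p = 0.0056 and 0.0154). Without tumours 7 and 8 the relation of DNAJB1 with BAG3 did not pass (r = 0.54, adjusted p = 0.143). By rho alone BAG3 also passed with HSPA8 (rho = 0.63, permutation test, adjusted p = 0.0375) and HSPA4L (rho = 0.61, adjusted p = 0.0411). Both had r = 0.57 (adjusted p = 0.0536). Without the 2 farthest tumours r was 0.54 for HSPA8 (adjusted p = 0.143) and 0.67 for HSPA4L (adjusted p = 0.0233). With high and with low spike-in controls the r with BAG3 was 0.94 and 0.77 for HSPH1, and 0.82 and 0.68 for DNAJB1. HSP90AA1, the heat-inducible cytosolic HSP90, went with HSPA4 (r = 0.78, rho = 0.81; adjusted p = 0.0014 and 0.0028) and HSPH1 (r = 0.66, rho = 0.68; adjusted p = 0.0232 and 0.0236). The 22 measured genes of endoplasmic reticulum stress, of which 5 rose and 0 fell, went with HSPA4 (r = 0.74), HSPA8 (r = 0.65), HSPA4L (r = 0.62) and HSPH1 (r = 0.61) and ran against HSPA2 (r = -0.63; permutation test, adjusted p from 0.0056 to 0.0371 for the 5). HSPA5, the HSP70 of the endoplasmic reticulum and a member of that list, went with HSPA4 (r = 0.77) and HSPA8 (r = 0.65), and against HSPA2 (r = -0.597; adjusted p = 0.048, and 0.15 without tumours 1 and 2). Without these tumours the relation of HSPA2 with the list was at r = -0.53 (adjusted p = 0.143). By Spearman's rho HSPA2 passed with neither the list (rho = -0.58, permutation test, adjusted p = 0.0514) nor HSPA5 (rho = -0.58, adjusted p = 0.0516).

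CDKN1A and the p53 targets did not pass with any of the 7 genes. For HSPH1 r was 0.11 with CDKN1A and 0.05 with the p53 targets. For HSPA8 r was 0.50 with CDKN1A (permutation test, adjusted p = 0.116; rho = 0.58, adjusted p = 0.0522) and 0.43 with the p53 targets (adjusted p = 0.224; rho = 0.48, adjusted p = 0.121). The proliferation list, of whose 28 measured genes 22 fell, did not pass with HSPA2 (r = 0.13). That r had opposite signs in the spike-in classes, -0.67 with high and 0.47 with low controls, and passed in neither. Of the marker lists of other cell types, neutrophil markers passed with HSPH1 (r = 0.61, rho = 0.61; permutation test, adjusted p = 0.0367 and 0.0411; r = 0.49 without tumours 7 and 8, adjusted p = 0.198). Of the 13 measured neutrophil markers 5 lay above the median probe set level, 3 rose and 0 fell, and their mean level ran from 4.57 to 6.59 after treatment and from 4.43 to 6.79 before. Their part in the changes of HSPH1 was not tested. Over all genes, against which these list counts are read, 4.02% were called higher and 3.13% lower. Of the 20 measured T and NK cell markers 9 fell and 0 rose, 4 lay above the median probe set level, and their mean level ran from 4.13 to 4.99 after treatment and from 4.38 to 5.74 before. They did not pass with any of the 7 genes, with r = -0.49 for HSPA4L (permutation test, adjusted p = 0.116; rho = -0.54, adjusted p = 0.0653) and r = -0.38 for HSPA4 (adjusted p = 0.301; rho = -0.51, adjusted p = 0.0953). Of the 16 macrophage markers 3 rose (MSR1, MARCO and FCGR1A) and 1 fell (CSF1R), and they passed with none of the 7 genes. For HSPA2 the mesenchymal and fibroblast list had r = 0.46 (adjusted p = 0.156), the neutrophil list -0.59 (adjusted p = 0.0521; rho = -0.62, adjusted p = 0.0411) and the testis and germ cell list -0.198 (adjusted p = 0.737). The mesenchymal r was 0.19 with high and 0.78 with low spike-in controls, and passed in neither. Of the 16 mesenchymal markers 4 fell and 0 rose, with a mean level from 10.6 to 11.9 after treatment and from 10.7 to 11.97 before, and of the 12 testis and germ cell genes 2 lay above the median probe set level and 0 passed.

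The level after treatment was also set against the level before, a relation added after the data were seen. Over all genes the median Pearson r between the 2 levels was 0.62. HSPA4L (r = 0.79, rho = 0.499) and HSPA2 (r = 0.71, rho = 0.50) had the highest r of the 7 (n = 21; permutation test, adjusted p = 0.00255 for both r and 0.0798 for both rho), but without the 2 tumours farthest from the median r was 0.35 and 0.45. For HSPH1 r was 0.31, for DNAJB1 0.35, for HSPA8 0.24, for HSPA4 0.30 and for DNAJB4 0.38, and none of these passed (permutation test, adjusted p from 0.203 to 0.305 for r and from 0.252 to 0.433 for rho). No difference in the spread between tumours was detected. The SD after treatment was 0.97 to 1.24 times the SD before in the 7 genes (permutation test swapping the samples within tumours, adjusted p from 0.968 to 0.998).

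Levels before treatment were compared in the same way. The nearest genes to HSPH1 in the level before were STIP1 (r = 0.897), HSPA5 (r = 0.86), the integrin gene ITGB3 (r = 0.80), ZFAND2A (r = 0.80) and DNAJB1 (r = 0.76), as a description over 21 tumours. Without tumours 8 and 19 the r with DNAJB1 was 0.45 and that with STIP1 0.83. HSPA2 was nearest to other genes, among them TNNI3 (r = 0.81), and HSPA8 to HIGD1A (r = 0.84).

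In the rest of the HSP70 system 8 genes rose, read against the 4.02% of all genes called higher and the 3.13% called lower. Of 7 other HSP70 family genes 1 rose, HSPA5 (0.56 ± 0.14). Of 38 other J-domain genes 2 rose, DNAJC3 (0.68 ± 0.18) and DNAJC25 (0.50 ± 0.13), of which DNAJC3 encodes a co-chaperone of the endoplasmic reticulum. That count is close to the share over all genes. Of 16 exchange factors and co-chaperones 3 rose, the BAG-domain genes BAG1 (0.39 ± 0.08), BAG2 (0.46 ± 0.09) and BAG3. BAG4 (0.07 ± 0.06), BAG5 (-0.03 ± 0.05) and BAG6 (-0.001 ± 0.05) of the same list did not pass (limma adjusted p from 0.590 to 0.993). Of 18 heat shock factors and other heat-induced chaperones 2 rose, the small heat shock proteins CRYAB (1.14 ± 0.22) and HSPB8 (0.47 ± 0.13), and HSF1 itself had a change of 0.04 ± 0.05 (SE, n = 21; limma adjusted p = 0.74). No gene of these 4 lists fell, and their median changes were 0.14, 0.03, 0.04 and 0.04. The limma adjusted p of the 8 genes that rose ran from 0.00296 for BAG2 to 0.0283 for HSPB8.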

How the data were processed

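Per the labels' protocols, sarcoma tissue went into RNAlater, a Qiagen kit was used to isolate total RNA, and biotin was the label. The authors deposited log2 levels per probe set; per the submitters' processing notes they used RMA and Affymetrix Expression Console, with versions not given in the sources used here. The log2 scale was read from the deposited values, which run from 2.13 to 14.6 with array medians from 5.20 to 5.31. RMA sets arrays to a common distribution, so a shift shared by all genes would not be seen.

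Of 43035 probe sets, 111 controls were left out and 42924 were tested. Platform annotation gave 29254 of them 1 symbol, 439 several and 13231 none here, and 15115 genes were each taken by the probe set with the highest mean over all arrays. Each title starts with a tumour code, which gave the pairs. With group means removed, both arrays of a tumour correlated best with each other in 21 of 21 tumours (r from 0.44 to 0.90).

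The test of change was a limma fit (limma 3.58.1, R 4.3.3) that held each tumour as a block, with Benjamini-Hochberg adjustment over all probe sets, two-sided at 0.05. Relations over tumours used 100000 permutations, and mclust 6.1.1 checked each gene's change for separate clusters. The other steps ran in Python 3.11.15 (pandas 2.3.3, SciPy 1.17.1, NumPy 2.4.6), with figures by Matplotlib 3.10.9. The fit and the permutation tests were tested on simulated data. The genes, lists and alternatives were chosen with earlier results of these data known. Genes named beside the 7 studied were the 5 nearest in change and the 5 nearest in level before treatment, 5 comparators, and called members of 4 lists of the HSP70 system. HSF1, BAG4, BAG5, BAG6 and the macrophage markers were chosen after their values were seen. DNAJA1, for which no probe set carries that symbol alone, and promoter motifs were not analysed here.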

Additional observations from a re-analysis of the deposited data

How the results depend on the processing

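The call on HSPA2 was kept in 10 of 12 other settings and in all 21 fits that left out 1 tumour (values from -1.29 to -1.11). It was lost with no replicate block (-1.19, limma adjusted p = 0.524) and in the tumours with low spike-in controls alone (-1.22, adjusted p = 0.154). The unadjusted limma p of HSPA2 was 0.00047 with low controls alone. It was 0.00073 with high controls alone, where the call was kept (-1.16, adjusted p = 0.0365). HSPA4L lost its call with no replicate block (0.37, adjusted p = 0.9997), a random replicate block (0.37, adjusted p = 0.129), array weights (0.32, adjusted p = 0.068), high spike-in controls alone (0.20, adjusted p = 0.311), low spike-in controls alone (0.497, adjusted p = 0.258) and the mean of its probe sets (0.299, adjusted p = 0.0572), and ran from 0.32 to 0.42 without 1 tumour. HSPA4 passed with a random replicate block (0.25, adjusted p = 0.0327) and among probe sets above the median level (0.25, adjusted p = 0.0426), and ran from 0.22 to 0.29 without 1 tumour. The sign of HSPA8 turned under array weights (-0.041) and with high spike-in controls alone (-0.092), and its value ran from -0.043 to 0.070 without 1 tumour. HSPH1, DNAJB1 and DNAJB4 passed in no setting. They ran from 0.03 to 0.80, 0.13 to 0.24 and 0.03 to 0.17 over the other settings, and from 0.35 to 0.61, 0.10 to 0.32 and 0.02 to 0.13 without 1 tumour. Over all probe sets 1273 were called higher and 1285 lower. With no replicate block 27 and 3 were called. A random replicate block called 663 lower, the fit without tumours 13 and 15 called 2203 lower, and high spike-in controls alone called 510 higher and 783 lower. Low controls alone called 0 higher and 0 lower, with 4989 at an unadjusted limma p under 0.05. Without 1 tumour, 882 to 1587 were called higher and 920 to 1730 lower. Of the 11 relations between the genes, 8 also passed without the 2 farthest tumours and 10 with arrays centred on their median. With high controls alone 0 passed (5 at an unadjusted permutation p under 0.05), and with low controls alone 5 passed. Of the 13 relations with other genes and lists, 9 also passed without the 2 farthest tumours, 0 passed with high controls alone (22 of 140 unadjusted) and 1 with low controls alone (17 of 140 unadjusted). In both classes all of these relations kept their sign. The difference between HSPA2 and HSPA8 passed in neither alone (0 of 5 pairs in each, 1 in each unadjusted). The high class holds 9 tumours and the low class 12, in place of 21. The cause of the differences between these fits and the main fit was not tested. DNAJA1 could not be run in any setting, nor HSPA4L in the fit above the median level. The number of arrays limits the precision, and the low level of its probe set limits HSPA4L.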
